A study of Mus musculus with 2 samples.

Results

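Gzma encodes granzyme A, a serine protease that killer lymphocytes store in granules and release into target cells. The cells described here are the CD8+ T cells in which at least 1 Gzma transcript was captured, in 2 single-cell RNA libraries of mouse lymph node CD8+ T cells labelled NC and HC. The series asks about electrical stimulation of these cells through the matrix they grow on. The labels do not say which library was stimulated, and they do not give strain, age or culture time. There was 1 library in each group and thus no replicate: NC and HC could not be tested against each other, and the 95% intervals are for counting error alone. A transcript was counted as a unique molecular identifier (UMI), a tag that marks 1 captured RNA molecule. Barcodes with 500 or more genes, 1000 or more UMIs and a mitochondrial share of no more than 10% were kept, and a kept cell with at least 1 Gzma UMI was called Gzma-positive. This held for 1559 of 27258 kept cells, 489 of 13641 in NC and 1070 of 13617 in HC, and the other 25699 kept cells are called Gzma-0 cells.

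In a CD8+ T cell, granzyme A acts beside granzyme B and the pore-forming protein perforin. Naive cells make little of either granzyme, and activated cells switch on the granzyme genes in part independently of each other as they become effectors. Memory-prone cells keep the transcription factor TCF1 (gene Tcf7) and the interleukin-7 receptor, while effector cells lower both. The mouse Gzma gene lies at chr13:113093825-113100981 on the minus strand of GRCm38 (the build also called mm10), on the same chromosome as Gzmk at chr13:113171608-113225908, whereas Gzmb lies at chr14:56258838-56262260.

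The label CD8 T cell held for the Gzma-positive cells by their markers. Cd8b1, a chain of the CD8 co-receptor, had a UMI in 97.1% of the NC and 96.9% of the HC Gzma-positive cells, and Cd3e, a part of the receptor complex of T cells, in 90.4% and 89.3%. Summed over the 6 CD8 T cell markers the level was 3935 counts per 1000000 UMIs (CPM) in NC and 3616 CPM in HC Gzma-positive cells, against 4271 and 3851 CPM in Gzma-0 cells. Cd4 of helper T cells, Foxp3 of regulatory T cells, Ncr1 of natural killer cells, the B cell gene Ms4a1, and Csf1r and C1qa of macrophages all had 0 UMIs in the Gzma-positive cells of both libraries. Other genes of those lists were present. The 4 regulatory T cell markers summed to 302 (NC) and 352 CPM (HC) in Gzma-positive cells, against 260 and 298 CPM in Gzma-0 cells. Those UMIs came from Ikzf2, Il2ra and Ctla4. The 6 natural killer cell markers summed to 668 and 621 CPM, nearly all Nkg7, against 702 and 597 CPM. The 7 B cell markers, 3 of them at 0 in NC and 4 in HC, summed to 22.7 and 17.1 CPM in Gzma-positive cells, against 36.7 and 16.8 CPM in Gzma-0 cells, and most of that was Cd79b, at 15.6 and 16.6 CPM against 12.3 and 13.7 CPM. The 6 macrophage markers, 4 at 0 in each, summed to 3.30 and 2.94 CPM, nearly all Cd68, against 6.74 and 3.15 CPM. The part of these cell types in the results was not tested. For Zbtb16 of innate-like T cells there were 0 UMIs in NC against 1 in HC. Trdc, the constant part of the delta T cell receptor chain, had 804 and 1439 UMIs there, and the 6 gamma-delta markers measured summed to 151 CPM in NC and 137 CPM in HC, against 131 and 108 CPM in Gzma-0 cells. Trdc made up most of that sum. Tcrg-C4, a constant part of the gamma chain named after its values were seen, was at 6.42 against 3.12 CPM in NC and 5.25 against 2.52 CPM in HC, log2 ratios of 1.04 and 1.06. The part of gamma-delta T cells in the results below was not tested. The libraries shared 49 kept barcodes, of which 0 were Gzma-positive in NC and 3 in HC.

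Most Gzma-positive cells sat just past the rule. In NC 373 of the 489 (76.3%) held exactly 1 Gzma UMI, 57 held 2, 36 held 3 to 4 and 23 held 5 or more, up to 23 UMIs in a cell. In HC 739 of the 1070 (69.1%) held 1, 142 held 2, 98 held 3 to 4 and 91 held 5 or more, up to 45 UMIs. The few cells with 5 or more UMIs carried 25.4% of all Gzma UMIs of kept NC cells and 42.8% of those of HC cells. A kept cell of the HC library was thus more often Gzma-positive, at 7.86% (7.41 to 8.32, exact binomial interval) against 3.58% (3.28 to 3.91) in NC. Summed over kept cells, Gzma stood at 7.04 CPM (6.56 to 7.54) in NC and at 20.7 CPM in HC (19.9 to 21.6). When each cell was thinned to 2000 UMIs, 1.05% of NC and 2.64% of HC cells still showed a Gzma UMI.

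Detection grew with the depth of the cell in both libraries, and the HC share was above the NC share in each depth class from 2000 UMIs up. Among cells of 2000 to under 4000 UMIs, 1.68% of NC and 3.26% of HC cells were Gzma-positive. Among those of 24000 UMIs or more, 10.3% and 24.4% were. The Gzma level per 1000000 UMIs varied less than the share: from 4.56 to 8.84 CPM over these 7 classes in NC and from 11.1 to 29.2 CPM in HC.

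**Figure D1:**
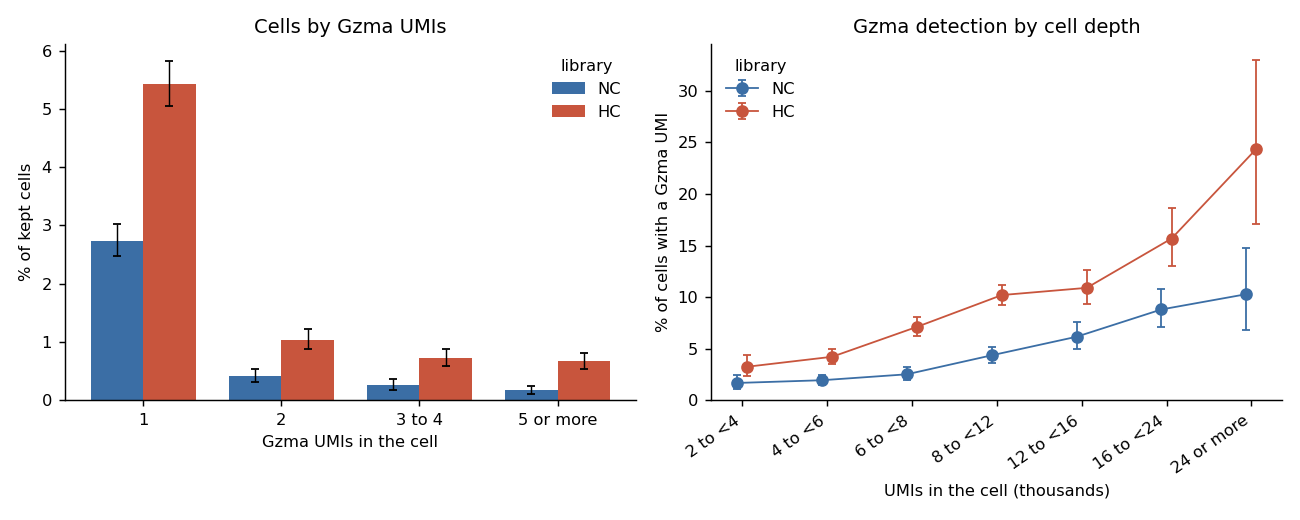
Left, percent of kept cells (vertical axis) with 1, 2, 3 to 4 or 5 or more Gzma UMIs in NC and HC; right, percent of cells with a Gzma UMI by UMIs in the cell (axis in units of 1000). Bars and points carry exact 95% binomial intervals, which cover counting error only; HC lies above NC in each class, at 5.43% against 2.73% for 1 UMI and 24.4% against 10.3% in the deepest cells.

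Since a single UMI can come from RNA outside the cell, the shares in other barcodes are set beside these. Neither kind is a clean measure of background, as B cell-like barcodes may be doublets and damaged barcodes may be CD8 T cells. Of 18 B cell-like barcodes in NC, named from at least 3 of 7 B cell markers, 1 had a Gzma UMI (5.56%, 0.141 to 27.3, median 13508.5 UMIs), and the 1 such barcode in HC had none. That interval holds the NC share, so 18 barcodes are too few to set a background level. Of the barcodes left out for high mitochondrial content, 8 of 1096 in NC (0.730%, 0.316 to 1.43, median 958 UMIs) and 16 of 1777 in HC (0.900%, 0.515 to 1.46, median 839 UMIs) had 1 Gzma UMI each. Per 1000000 UMIs that was 5.08 CPM (2.19 to 10) in NC, about the level of all kept NC cells, and 6.68 CPM (3.82 to 10.8) in HC, below that of kept HC cells. These levels differ in depth and in mitochondrial share. The median mitochondrial share was 40.6% in NC and 43.2% in HC left-out barcodes, against 3.93% and 4.36% in kept cells. Kept cells under 2000 UMIs stood at 0 CPM (0 to 17.9) in NC and 6.88 CPM (0.174 to 38.4) in HC.

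Gzma followed Gzmb, which the rule did not use, although the more Gzmb UMIs a cell had the deeper it was. Among cells of 8000 to under 12000 UMIs, Gzma stood at 3.62 CPM in NC cells with no Gzmb UMI (2.67 to 4.80), 12.4 CPM with 1 to 4, 16.0 CPM with 5 to 19 and 22.3 CPM with 20 or more (8.18 to 48.5). In HC cells of that depth the levels were 14.1 CPM (11.7 to 16.9), 19.3, 40.4 and 29.4 CPM (18.4 to 44.5). The part of free RNA was not tested.

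Gzma-positive cells were deeper and more often in cycle than Gzma-0 cells. Their median was 10285 UMIs in NC and 9310.5 in HC, against 6808 and 7283. A UMI of the cycle genes Mki67 or Top2a was found in 87.3% of NC and 89.7% of HC Gzma-positive cells, against 68.2% and 77.7%. A deep cell shows such a UMI more readily: among cells of 8000 to under 12000 UMIs the share in NC was 92.9% with Gzma only and 91.9% with both granzymes, against 83.2% with Gzmb only and 79.6% with neither, while in HC it was 98.4% and 95.3% against 95.4% and 95.6%. Cells over 20000 UMIs made up 11.7% and 5.61% of them, against 3.44% and 1.94%, and doublets were not removed. A deep cell is more likely to show a Gzma UMI. The comparisons that use Gzma-0 cells were therefore also made with those cells weighted to the depth of the Gzma-positive cells. The comparison of HC with NC within Gzma-positive cells uses no Gzma-0 cells and was not weighted.

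Few genes set the Gzma-positive cells apart from Gzma-0 cells in both libraries. CPM were taken from UMIs summed over the cells of each kind, for 4851 genes with at least 20 CPM in either kind in both libraries. At least 1.5-fold the same way in both libraries, 7 genes were higher (0.144% of those measured) and 2 were lower (0.0412%). The cells were chosen on Gzma in this same data, so these are descriptions and carry no test. The higher genes were S100a4, S100a6, Lgals3, Ccl5, Pim1, Prr5 and the predicted gene Gm13546, and the lower ones were Xcl1 and Dapl1. Prr5 in both libraries and Gm13546 in NC passed the floor of 20 CPM through Gzma-positive cells alone, where they had to be higher. Xcl1 in HC passed it through Gzma-0 cells alone, so it had to be lower in Gzma-positive cells. Taken within each library, 45 of the 4851 genes were higher and 12 lower in NC, and 7 and 4 in HC. These counts include the genes called in both libraries. With at least 3 Gzma UMIs required the counts in both libraries were 31 and 40, over 4927 genes.

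**Figure D2:**
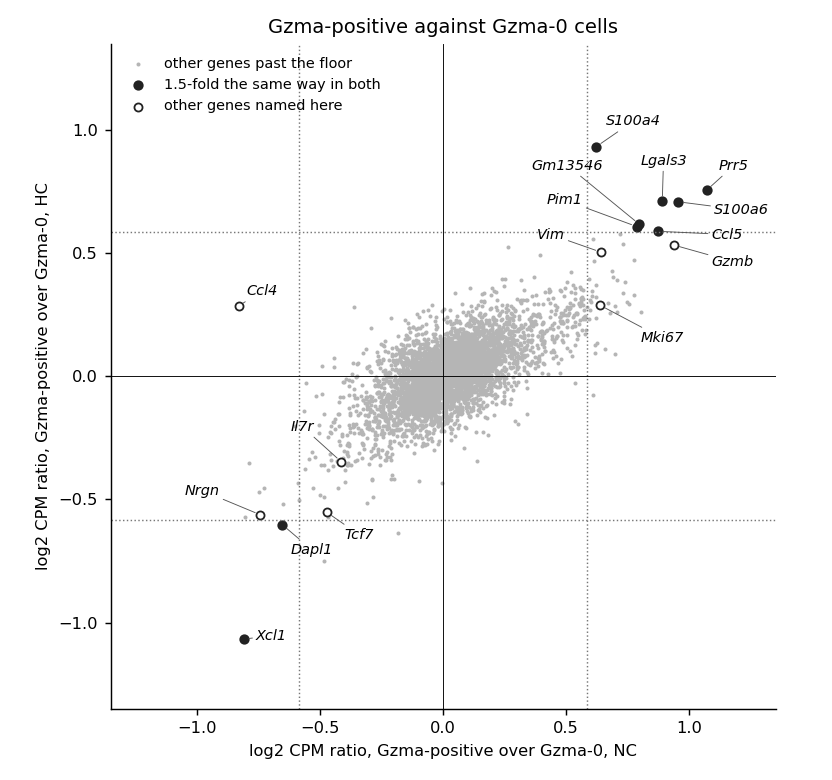
Log2 CPM ratio of Gzma-positive over Gzma-0 cells in NC (horizontal) and HC (vertical), 1 point per gene for 4851 genes; dotted lines mark 1.5-fold. S100a4, S100a6, Lgals3, Prr5, Pim1, Ccl5 and Gm13546 lie past the lines at the upper right, Xcl1 and Dapl1 at the lower left, and Ccl4 lies at -0.83 in NC and 0.29 in HC.

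Among the other granule genes past the floor, granzyme B had the largest ratios. Gzmb was at 404 CPM in Gzma-positive and 211 CPM in Gzma-0 cells of NC, a log2 ratio of 0.94, and at 518 and 358 CPM in HC, a log2 ratio of 0.53 (0.49 to 0.57), short of 1.5-fold. It had a UMI in 72.8% of NC and 80.1% of HC Gzma-positive cells, against 48.9% and 63.3% of Gzma-0 cells. Weighted for depth its log2 ratios were 0.69 and 0.32. Nkg7, a granule membrane protein, was level at -0.07 and 0.06. Perforin (Prf1) was low everywhere, with 10.4 CPM in NC and 11.3 CPM in HC Gzma-positive cells and log2 ratios of -0.36 (-0.76 to 0.01) and 0.33 (0.05 to 0.60). Gzmk had 0 UMIs in NC and 5 in HC Gzma-positive cells, too few for a fold. Of the 9 granule genes that passed the floor 0 were 1.5-fold apart in both libraries, and their median log2 ratio was -0.04 in NC and 0.06 in HC, against 0.03 and 0.02 over all 4851 genes. Below the floor, Gzmc, named after its values were seen, was at 14.4 against 7.03 CPM in NC and 9.88 against 6.90 CPM in HC, log2 ratios of 1.04 and 0.52, about those of Gzmb. It belongs to a cluster of near-identical granzyme genes on chr14, whose reads the counting could split, so its values are uncertain.

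Genes listed as granzyme and cathepsin inhibitors were close to level. Serpinb6b had log2 ratios of 0.26 and 0.28, and Serpinb9, the inhibitor of granzyme B, 0.17 and 0.15. Of the 4 inhibitors measured 0 were 1.5-fold apart in both libraries.

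Calcium-binding S100 proteins, annexins and galectins formed the list with the most genes 1.5-fold higher in both libraries. Of its 15 measured genes 3 were 1.5-fold higher in both libraries and 0 lower, and the median log2 ratio was 0.32 in NC and 0.22 in HC. S100a6 was at 622 (NC) and 771 CPM (HC) Gzma-positive cells, against 321 and 472 CPM in Gzma-0 cells, log2 ratios of 0.95 and 0.71 (0.68 to 0.74 in HC). S100a4, a binding partner of myosin in moving cells, was at 139 against 90.4 CPM in NC and 251 against 131 CPM in HC, log2 ratios of 0.62 and 0.93. Lgals3, the galectin-3 gene, had log2 ratios of 0.89 and 0.71. Anxa2 reached 0.69 in NC and 0.40 in HC, and the intermediate filament gene Vim, 0.64 and 0.50. Weighting Gzma-0 cells for depth left S100a6 at 0.99 and 0.71, S100a4 at 0.62 and 0.94, and Lgals3 at 1.03 and 0.79.

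Chemokine genes went different ways. Ccl5, which draws T cells and is a hallmark of effector and memory CD8 cells, was higher in Gzma-positive cells at 257 against 140 CPM in NC and 151 against 100 CPM in HC, log2 ratios of 0.87 (0.79 to 0.95) and 0.59 (0.51 to 0.66). With depth weighting the HC value was 0.54, short of 1.5-fold. Xcl1, which draws cross-presenting dendritic cells, was lower at 177 against 311 CPM in NC and 16.0 against 33.6 CPM in HC, log2 ratios of -0.81 (-0.90 to -0.72) and -1.07 (-1.29 to -0.85). The share of cells with an Xcl1 UMI, not adjusted for depth, differed less: 31.1% against 33.3% in NC and 6.17% against 7.83% in HC. The 5 Gzma-positive cells with most Xcl1 UMIs had 40.9% of them in NC and 44.4% in HC. Thinned to 2000 UMIs, the share with an Xcl1 UMI was 12.5% against 17.2% in NC and 1.78% against 3.12% in HC. The Xcl1 log2 ratio was then -0.49 in NC and -1.13 in HC. With Gzma-0 cells weighted for depth it was -1.09 and -1.19. Ccl4 was lower in NC at 60.4 against 107 CPM and higher in HC at 23.8 against 19.5 CPM, log2 ratios of -0.83 and 0.29, but a single HC cell held 152 of its 267 UMIs there. Without the Gzma-positive cell with most Ccl4 UMIs in each library, an alternative added after the data were seen, the ratios were -1.04 and -0.93.

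Receptors and kinases of the interleukin-2 family were mixed. Il2ra, the inducible chain of the interleukin-2 receptor, was higher in Gzma-positive cells at 47.7 against 28.8 CPM in NC and 68.8 against 47.4 CPM in HC, log2 ratios of 0.73 (0.55 to 0.91) and 0.54 (0.43 to 0.65). Pim1, a kinase gene that cytokine signals through STAT5 switch on, was 1.5-fold higher in both at 0.79 and 0.61. Il2rb, shared by the interleukin-2 and interleukin-15 receptors, was near level at 0.14 and 0.18. Il7r was lower at 187 against 250 CPM in NC and 198 against 252 CPM in HC, log2 ratios of -0.41 and -0.35, under 1.5-fold, and -0.13 and -0.14 with depth weighting. Of the 12 genes of this list that passed the floor, 1 was higher and 0 lower in both libraries, and the medians were -0.05 and -0.15.

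Genes of naive and memory cells lay mostly on the low side. Of 17 measured, 11 were below 0 in both libraries, 1 of them by 1.5-fold, and the medians were -0.26 in NC and -0.20 in HC. Dapl1, which marks naive and memory-prone CD8 cells, was at 293 against 462 CPM in NC and 251 against 380 CPM in HC, log2 ratios of -0.65 (-0.72 to -0.58) and -0.60 (-0.66 to -0.55). Tcf7 was at 192 against 267 CPM and 154 against 226 CPM, log2 ratios of -0.47 (-0.56 to -0.39) and -0.55 (-0.62 to -0.48). Id3, an inhibitor of E proteins kept by memory precursors, had -0.35 and -0.34. Depth weighting brought the list medians to -0.10 and -0.07, with Tcf7 at -0.25 and -0.38 and Dapl1 at -0.48 and -0.45, so none of the 17 was then 1.5-fold lower in both.

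The transcription factors that define effector CD8 cells differed little. Tbx21 (T-bet) had log2 ratios of 0.23 (-0.01 to 0.47) and 0.16 (-0.03 to 0.34), and Id2 of 0.08 and 0.30. Runx3 was at 228 against 217 CPM in NC and 281 CPM in both kinds of HC cell. Eomes was under 4 CPM in every group, at 2.78 (NC) and 0.979 CPM (HC) Gzma-positive cells. Prdm1 (Blimp-1), below the floor of 20 CPM, was the exception, at 6.42 CPM (37 UMIs) against 1.97 CPM in NC and 11.5 CPM (129 UMIs) against 5.44 CPM in HC, log2 ratios of 1.70 (1.16 to 2.21) and 1.08 (0.79 to 1.36). Prdm1 had a UMI in 5.73% of NC and 10.7% of HC Gzma-positive cells, against 1.48% and 3.94% of Gzma-0 cells. Of 9 effector factors past the floor 0 were 1.5-fold apart in both. Zbtb32, a zinc-finger repressor of activated lymphocytes, had log2 ratios of 0.61 and 0.56.

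Receptors shared with natural killer cells were lower or level rather than higher. All 4 that passed the floor were below 0 in both libraries, 0 by 1.5-fold, with medians of -0.31 in NC and -0.36 in HC. With depth weighting 3 passed the floor, with medians of -0.24 and -0.14. Klrd1 (CD94) was at 618 against 745 CPM in NC and 582 against 671 CPM in HC, Klrk1 (NKG2D) had log2 ratios of -0.33 and -0.23, and Cd160 had -0.47 and -0.57. The T cell receptor and CD8 genes were close to level, with medians of -0.06 and -0.07 over 19 genes. Cd8a was at -0.21 and -0.23 and Cd8b1 at -0.07 and -0.10.

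All 20 mitosis genes were above 0 in both libraries, with medians of 0.55 in NC and 0.29 in HC, and 0 reached 1.5-fold in both. Mki67 was at 540 against 347 CPM in NC and 624 against 511 CPM in HC, and Ube2c, a ubiquitin-carrier enzyme of mitotic exit, at 540 against 359 and 582 against 442 CPM. Depth weighting brought the medians to 0.28 and 0.14, and weighting for both depth and the presence of a Mki67 or Top2a UMI, added after the data were seen, to 0.21 and 0.12. Under that last weighting S100a6 was at 0.96 and 0.70 and Tcf7 at -0.22 and -0.38.

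Several genes too low for the floor were higher in Gzma-positive cells by over 1.5-fold in both libraries, and they were named after their values were seen. At a floor of 5 CPM, 18 of 8508 genes were higher and 11 lower in both, the 9 above among them. On the low side, Izumo1r had log2 ratios of -0.71 in NC and -1.03 in HC. Ifitm1 and Ifitm2 in NC and Ccr2 in both libraries reached 5 CPM through Gzma-positive cells alone, where they had to be higher. Ifitm1, an interferon-inducible membrane protein, was at 13.7 against 3.51 CPM in NC and 30.3 against 12.1 CPM in HC, log2 ratios of 1.97 (1.60 to 2.32) and 1.32. In NC it was found in 22 of 489 Gzma-positive cells (4.50%, against 1.21% of Gzma-0 cells), and 5 of them held 64.6% of its UMIs. In HC it was in 80 of 1070 cells (7.48% against 3.15%). Its neighbour Ifitm2 had log2 ratios of 1.33 and 0.92. Sytl2, a synaptotagmin-like protein of granule transport, had 1.39 (1.08 to 1.69) and 0.73 (0.49 to 0.96). Ccr2, a receptor for inflammatory chemokines, was at 5.21 against 1.68 CPM and 7.57 against 2.51 CPM, and in NC 5 cells held 53.3% of its UMIs. Of the genes past the floor that interferon induces, 6 were measured from a list that holds no Ifitm gene. Their medians were -0.11 and -0.01.

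Of the 9 genes apart in both libraries, 8 had a larger ratio in cells with 2 or more Gzma UMIs than in cells with 1, in both libraries, by a measure of the same readout that chose the cells. Xcl1 was the exception: its log2 ratio went from -0.72 with 1 UMI to -1.11 with 2 or more in NC, but from -1.31 to -0.67 in HC, and in HC cells with 5 or more it stood at 43.7 CPM, above the 33.6 CPM of Gzma-0 cells. A single HC Gzma-positive cell held 43 of the 180 Xcl1 UMIs of those cells (23.9%). The part of that cell in these HC values was not tested. The level of S100a6 over cells with 0, 1, 2, 3 to 4 and 5 or more Gzma UMIs was 321, 553, 737, 877 and 919 CPM in NC and 472, 682, 747, 1111 and 1080 CPM in HC. Tcf7 went the other way, from 267 through 213, 158 and 114 to 97.1 CPM in NC and from 226 through 177, 138 and 92.1 to 82.2 CPM in HC. Dapl1 also fell at each step, from 462 through 342, 223 and 125 to 35.6 CPM (17.8 to 63.7) in NC and from 380 through 296, 201 and 150 to 110 CPM in HC. Gzmb was at 211, 326, 596, 647 and 660 CPM in NC and at 358, 491, 468, 618 and 668 CPM in HC, so the HC values did not rise at each step. Cd8b1 stayed between 488 and 569 CPM in NC and between 470.5 and 548 CPM in HC. Neighbouring top classes had overlapping intervals for most of these genes, since the class of 5 or more held 23 NC and 91 HC cells.

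**Figure D3:**
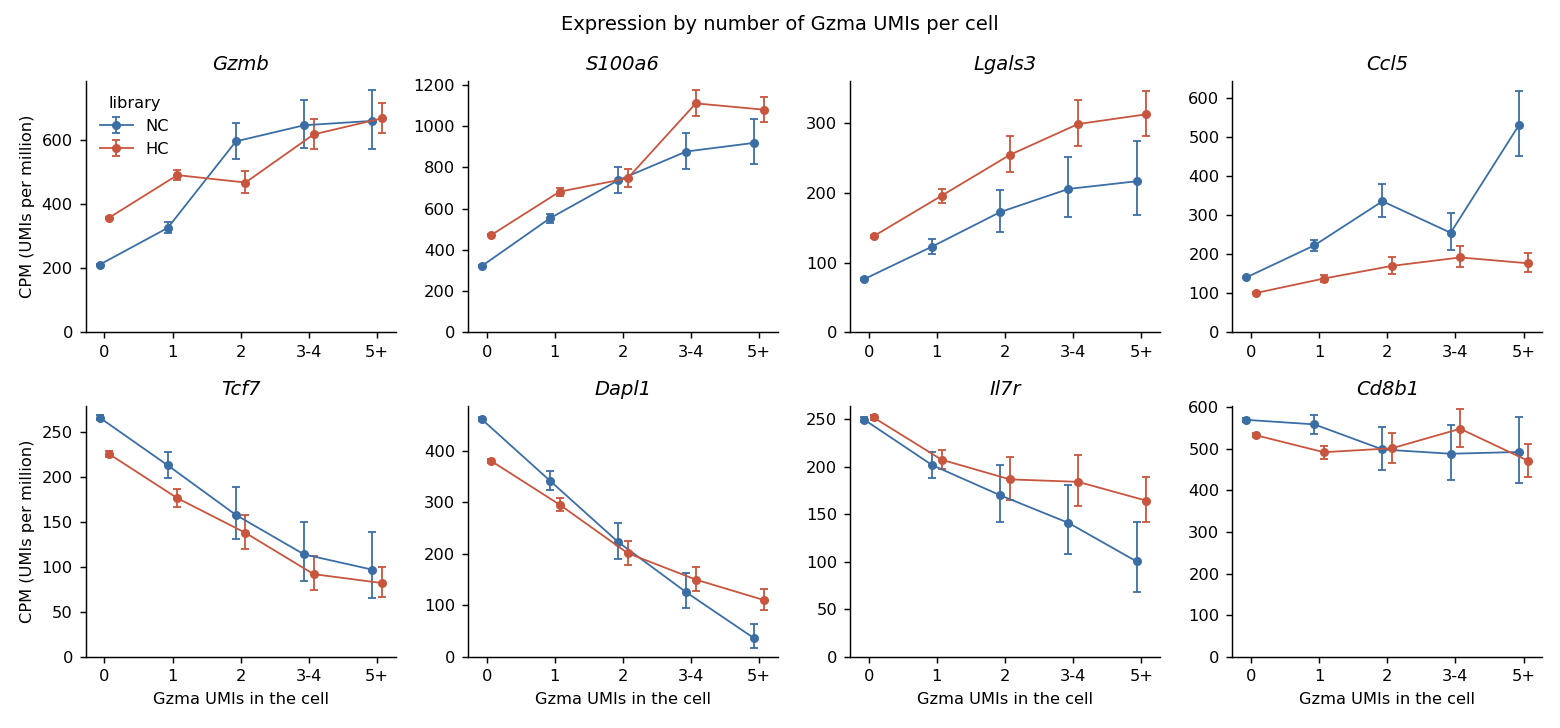
CPM of 8 genes (vertical axes) by the number of Gzma UMIs in the cell, summed over the cells of each class in NC and HC, with exact 95% Poisson intervals for counting error. S100a6 and Lgals3 lie higher and Tcf7, Dapl1 and Il7r lower with more Gzma UMIs, while Cd8b1 shows no such order.

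Cells with exactly 1 Gzma UMI, showed the same directions in smaller size for the 4 genes that follow. Their log2 ratio over Gzma-0 cells was 0.78 (0.72 to 0.85) in NC and 0.53 (0.49 to 0.57) in HC for S100a6, 0.63 and 0.46 for Gzmb, -0.43 and -0.36 for Dapl1, and -0.32 and -0.35 for Tcf7. In cells with 2 or more they were 1.35 and 1.02 for S100a6, 1.57 and 0.68 for Gzmb, -1.57 and -1.26 for Dapl1, and -1.01 and -1.07 for Tcf7. Among cells with 3 or more Gzma UMIs, 4 of the 17 naive and memory genes were at least 1.5-fold lower in both libraries, the medians were -0.47 and -0.36, and Ccr7, the receptor that leads T cells into lymph nodes, named after its values were seen, was at -1.21 and -1.11. Egr1, an immediate early gene of T cell receptor signalling, was at -2.38 and -1.65 there. These thresholds use the chosen readout, so they add no independent evidence.

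Within the band of 8000 to under 12000 UMIs, the Gzma-positive cells were not alike: those with and without a Gzmb UMI differed in several of the genes above. This split was added after the data were seen. It held 86 NC and 321 HC cells with UMIs of both granzymes, 42 and 63 with Gzma only, 1480 and 2540 with Gzmb only, and 1326 and 839 with neither. S100a6 stood at 809 CPM in NC cells with both (749.7 to 871), 478 CPM with Gzmb only, 344 CPM with Gzma only (290 to 405) and 173 CPM with neither. In HC it stood at 889, 540, 405 and 276 CPM. Cells with both thus had the highest S100a6 in each library, above those with Gzmb only.

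Tcf7 and Dapl1 were lowest in cells with both granzymes. Tcf7 was at 160 CPM in NC cells with both (134 to 189), 215 CPM with Gzmb only, 278 CPM with Gzma only (230.1 to 333) and 289 CPM with neither. In HC it was at 127, 175, 270 and 277 CPM, so Gzma-only cells lay within counting error of cells with neither granzyme. Dapl1 was at 231, 410, 465 and 521 CPM in NC and at 200.3, 310, 429 and 521 CPM in HC, with intervals of 402 to 535 in NC and 379 to 485 in HC for Gzma only. Gzma-only cells were instead the ones with the most Mki67: 842 CPM (757 to 935) in NC and 869 CPM (796 to 946) in HC, against 527 and 659 CPM with both and 433 and 722 CPM with neither. Ube2c was also higher in Gzma-only cells than in cells with both, with 724 and 948 CPM against 529 and 562 CPM. Ifitm1 was high with either kind of Gzma-positive cell: 26.1 CPM with Gzma only and 29.1 CPM with both in NC, against 7.60 CPM with Gzmb only and 2.18 CPM with neither, and 36.2 and 40.5 CPM against 12.7 and 9.18 CPM in HC. Over NC Gzma-positive cells of any depth, 1 cell held 16 of the 79 Ifitm1 UMIs and 5 cells held 64.6%. In HC 5 cells held 30%. The part of single cells in the Ifitm1, Mki67 and Ube2c values of each kind was not tested. The part of free Gzma RNA in the Gzma-only cells was not tested.

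**Figure D4:**
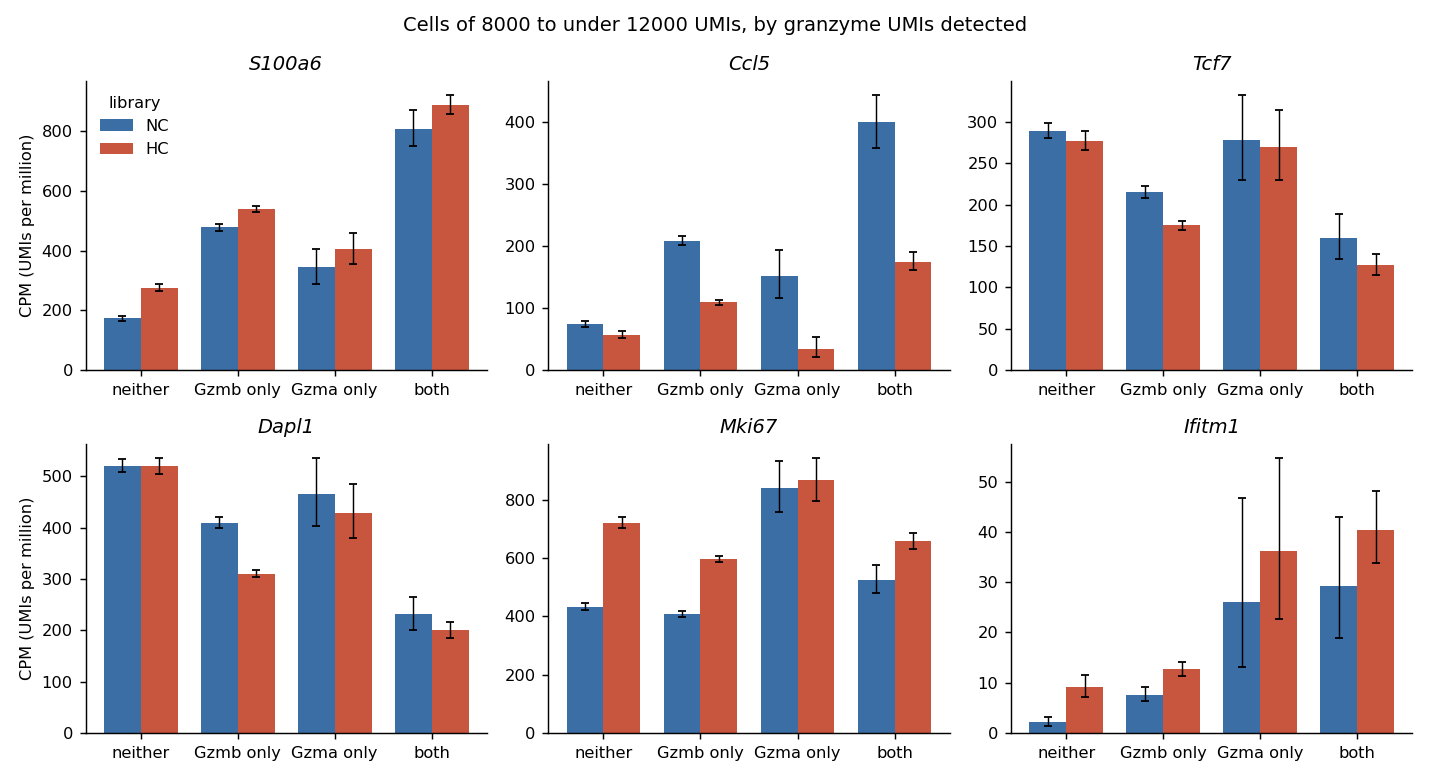
CPM (vertical axes) of 6 genes in cells of 8000 to under 12000 UMIs with UMIs of neither granzyme, of Gzmb only, of Gzma only or of both, in NC and HC, with exact 95% Poisson intervals for counting error. Cells with both have the highest S100a6 and Ccl5 and the lowest Tcf7 and Dapl1, and cells with Gzma only have the highest Mki67.

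Between the libraries, the genes that differed in Gzma-positive cells overlapped with those that differed in Gzma-0 cells. Of 5127 genes with at least 20 CPM in Gzma-positive cells of either library, 60 (1.17%) were higher in HC by 1.5-fold or more and 69 (1.35%) lower, with a median log2 ratio of HC over NC of -0.04. In Gzma-0 cells 66 of 5093 were higher (1.3%) and 59 lower (1.16%), with a median of -0.03. A gene past the floor in 1 library alone had to be higher in that library, and these counts include such genes. The higher genes had 45 in common, 75% of the Gzma-positive and 68.2% of the Gzma-0 list, and the lower genes 36, or 52.2% and 61.0%. The NC sum held 5761176 UMIs of 489 cells and the HC sum 11231239 UMIs of 1070 cells, so the Gzma-positive ratios carry wider intervals. Very deep cells made up a smaller share of Gzma-positive cells in HC (60 cells or 5.61% over 20000 UMIs, against 57 or 11.7% in NC), and the part of depth was not tested beyond the alternatives run.

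Genes induced by low oxygen and genes of glycolysis were higher in the HC Gzma-positive cells. Of 12 hypoxia genes measured, 8 were 1.5-fold higher and 0 lower, with a median log2 ratio of 0.74, but 7 of the 12 passed the floor through HC alone, where they had to be higher. With no floor, 11 of the 15 hypoxia genes with a UMI in both were 1.5-fold higher and 0 lower, with a median of 0.81. Of 17 glycolysis genes 12 were higher and 0 lower, with a median of 0.79, 2 of them past the floor through HC alone and 1 through NC alone. With no floor it was 13 of 18, 0 lower, with a median of 0.78. In Gzma-0 cells the medians past the floor were 0.86 and 0.78. Bnip3, which marks mitochondria for removal, was at 11.1 (NC) and 41.8 CPM (HC) Gzma-positive cells, a log2 ratio of 1.91 (1.53 to 2.31), against 2.27 in Gzma-0 cells. Aldoc, an aldolase, was at 7.81 and 35.2 CPM, a log2 ratio of 2.17 (1.72 to 2.65), the highest of the genes past the floor that the naming rule admits. Slc16a3, the lactate exporter, was at 20.5 and 60.4 CPM (1.56, 1.28 to 1.85) and Slc2a1, the glucose importer, at 10.1 and 23.5 CPM (1.22, 0.81 to 1.66). The triose isomerase gene Tpi1 was at 250 and 592 CPM, a ratio of 1.24 (1.16 to 1.33), below the 1.38 of Gzma-0 cells. Ndrg1, Ankrd37, the pyruvate dehydrogenase kinase gene Pdk1 and the oxygen sensor gene Egln3 had 1.53, 1.33, 1.30 and 1.20, and the enolase gene Eno1b had 1.83. H2-Ab1, a class II antigen presentation gene, was at 10.4 and 40.2 CPM (1.95, 1.56 to 2.36), and Prelid2 had 1.21. Bnip3, Aldoc, Slc2a1, Ndrg1, Ankrd37, Pdk1, Egln3, Eno1b and H2-Ab1 passed the floor through HC alone, where they had to be higher.

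The genes lower in HC were of mixed roles. Xcl1 was at 177 (NC) and 16.0 CPM (HC) Gzma-positive cells, a log2 ratio of -3.47 (-3.70 to -3.24), against -3.21 in Gzma-0 cells. Cd160, an inhibitory receptor of effector cells, was at 78.5 and 31.3 CPM (-1.32), and Nrgn, a calmodulin-binding protein, at 83.5 and 39.3 CPM (-1.09). Bcl2a1d, a survival gene with near-identical copies and therefore uncertain, had -1.17. Of 16 ribosome assembly genes 7 were 1.5-fold lower in HC and 0 higher, with a median of -0.52, against -0.49 in Gzma-0 cells. Of the 16, 3 passed the floor through NC alone, and with no floor 8 of 18 were lower and 0 higher, with a median of -0.52. Ddx21, a nucleolar helicase, was at 97.2 and 58.9 CPM (-0.72), and Nop16 at 33.3 and 19.9 CPM (-0.74). Outside that list Mdn1, Grwd1 and Wdr77 had -1.06, -0.93 and -0.89, the signalling regulator gene Rgs3 -0.97, and Itgae, the integrin that binds E-cadherin, -0.92. The one-carbon genes Shmt1 and Gcsh had -0.86 and -0.82. Xcl1, Bcl2a1d, Nop16, Mdn1, Grwd1, Wdr77, Rgs3, Itgae, Shmt1 and Gcsh passed the floor of 20 CPM through NC alone, where they had to be higher.

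**Figure D5:**
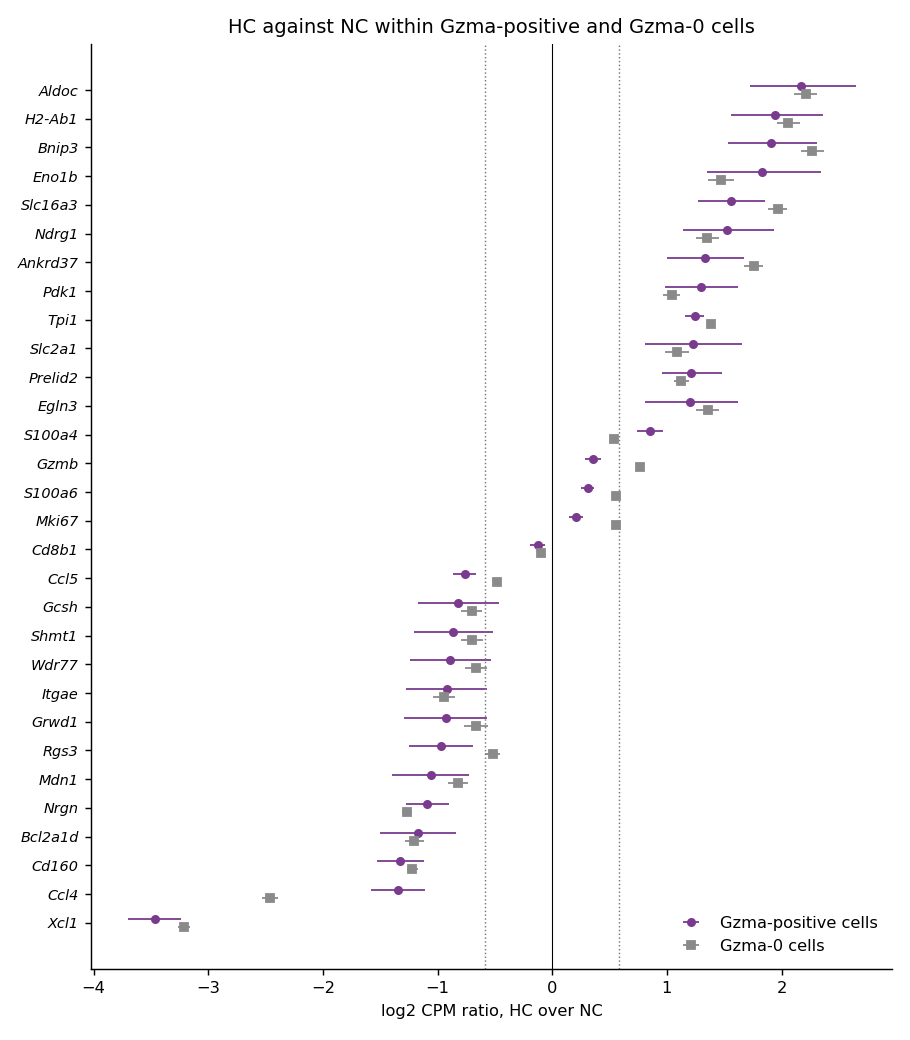
Log2 CPM ratio of HC over NC (horizontal axis) in Gzma-positive cells (circles) and in Gzma-0 cells (squares), with exact 95% binomial intervals for counting error; dotted lines mark 1.5-fold. The 12 highest and 12 lowest genes lie on the same side in both kinds of cell, while Gzmb, S100a6 and Mki67 have smaller ratios in Gzma-positive cells.

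Some genes had a smaller ratio between the libraries in Gzma-positive than in Gzma-0 cells, and others a larger one. Gzmb had a log2 ratio of HC over NC of 0.36 (0.29 to 0.43) in Gzma-positive cells and 0.76 in Gzma-0 cells, and S100a6 0.31 (0.25 to 0.37) against 0.56. The median of the 20 mitosis genes was 0.10 against 0.38, and Mki67 had 0.21 (0.15 to 0.27) against 0.56. Ifitm1 had 1.14 (0.79 to 1.51) against 1.78. The 9 effector transcription factors had a median of 0.16 against 0.03, and the 9 granule genes -0.07 against -0.08. Ccl5 and S100a4 differed more in Gzma-positive cells: Ccl5 had -0.76 (-0.87 to -0.66) against -0.48, and S100a4 0.85 (0.74 to 0.96) against 0.54. For each gene named in these sentences the ratio in Gzma-0 cells lay outside the counting interval of the Gzma-positive ratio, with 1 library per group and no test of the difference. Over the 5259 genes past the floor in either kind of cell, the counting intervals were apart for many others. The Gzma-positive ratio was the higher for 134 genes and the lower for 261. The Gzma levels that chose the cells also differed, at 141 CPM (132 to 152) in NC and at 211 CPM in HC (203 to 220.0) Gzma-positive cells.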

How the data were processed

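Each library was deposited as raw UMI counts for 32285 genes. Per the file headers, the authors made the counts with Cell Ranger 6.1.2. Cell Ranger 5.0.0, the build mm10 and Seurat 3.2.3 are listed in the submitters' processing notes. Per the labels, libraries came from a 3' kit of 10x Genomics (v3.1). For annotation and barcode calling, the tool settings were not given in the sources used here.

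The 13641 NC and 13617 HC kept cells were split by Gzma UMIs, and their counts were summed and divided by the sum's total, giving CPM (UMIs per 1000000). Depth was a median of 6898 UMIs per kept cell in NC and 7425 in HC. Ratios carry exact binomial, CPM exact Poisson and shares exact Clopper-Pearson intervals at 95%, for counting error only, and no pseudocount was added. A gene counted from 20 CPM and 1.5-fold, a ratio against a count of 0 was taken at 3 counts, and none was given where the other value was no higher. Doublets were not removed. Thinning drew 2000 UMIs per cell without replacement, which left out 133 NC and 94 HC shallower cells. Gzma-0 cells were weighted over 8 depth classes.

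The rule for Gzma-positive cells, the 21 gene lists, the 14 marker lists and the comparisons were chosen with earlier results of these data known. Genes named were the 12 highest and 12 lowest of each comparison, without mitochondrially encoded, ribosomal protein, predicted and receptor segment genes, up to 4 of each list with the largest ratios, and a fixed set of T cell genes. That made 120 genes, and others are marked in the text or are cell type markers. Where 2 identifiers shared a symbol, the one with more UMIs was used. The calling step was tested on simulated sums drawn with counting error alone, and the summing over cells was not tested in this way. Alternatives included DESeq2 1.42.0 size factors and edgeR 4.0.16 TMM factors, with no count model fitted. Positions came from GENCODE vM21 by identifier (32158 of 32285 matched). The software was R 4.3.3 and, in Python 3.11.15, pandas 2.3.3, scipy 1.17.1, numpy 2.4.6 and matplotlib 3.10.9.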

Additional observations from a re-analysis of the deposited data

Results flagged for a closer look

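Ccl4, a chemokine gene, went opposite ways in the libraries: its log2 ratio of Gzma-positive over Gzma-0 cells was -0.83 in NC (60.4 against 107 CPM) and 0.29 in HC (23.8 against 19.5 CPM). The difference between the libraries was not tested. A single HC cell held 152 of the 267 Ccl4 UMIs of the Gzma-positive cells (56.9%). Without the Gzma-positive cell with most Ccl4 UMIs in each library, an alternative added after the data were seen, the ratios were -1.04 in NC and -0.93 in HC, and the log2 ratio of HC over NC in Gzma-positive cells went from -1.35 to -2.34. No cell was taken from the Gzma-0 side.

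Barcodes outside the comparisons also carried Gzma: of those left out for high mitochondrial content, 0.730% in NC and 0.900% in HC had a Gzma UMI, each exactly 1.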

How the results depend on the processing

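With 1 library per group the intervals say nothing of how cultures or animals vary. Of the changes below, the causes were not tested. The share of Gzma-positive cells in NC and HC was 0.850% and 2.43% at 2 or more Gzma UMIs, 0.433% and 1.39% at 3 or more, 1.46% and 3.78% in cells with no Mki67 or Top2a UMI, 1.05% and 2.64% thinned to 2000 UMIs and 2.52% and 5.99% thinned to 5000, and in HC 8.85% at up to 5% mitochondrial UMIs, 8.44% in cells of 5000 to 15000 UMIs and 7.01% of all barcodes. In each of these that has both, HC was above NC. Genes 1.5-fold higher and lower in HC among Gzma-positive cells numbered 60 and 69, and 226 and 248 at a floor of 5 CPM, 29 and 18 at 50 CPM, 1203 and 1351 with at least 1 UMI and no floor, 17 and 6 at 2-fold, 147 and 224 at 2 or more Gzma UMIs, 272 and 408 at 3 or more, 539 and 774 in the 62 NC and 110 HC cells with no cycle UMI, and 257 and 316 after thinning. Genes higher and lower in Gzma-positive than Gzma-0 cells in both libraries numbered 7 and 2, and 18 and 11 at 5 CPM, 324 and 187 with no floor, 0 and 0 at 2-fold, 23 and 26 at 2 or more Gzma UMIs, 31 and 40 at 3 or more, 29 and 40 without cycle UMIs, 12 and 6 as a mean over cells, and 17 and 9 after thinning. The higher count was 4 when weighted for depth and cycle, and the lower count was 1 at 50 CPM and 5 both without cells over 20000 UMIs and in cells of 5000 to 15000 UMIs. Weighted for depth alone, 6 of the 9 genes were among the 7 called, and the other called gene was Nrgn, on the low side. In Gzma-0 cells the HC counts of 66 and 59 were 167 and 126 at 5 CPM, 37 and 18 at 50 CPM, 1747 and 1356 with no floor, 18 and 11 at 2-fold, and the higher one 119 in cells of 5000 to 15000 UMIs. Among cells with no cycle UMI some log2 ratios changed sign: HC over NC in Gzma-positive cells to 0.030 for Aen, 0.030 for Wdr77 and 0.29 for Gcsh, and Gzma-positive over Gzma-0 cells in NC to -0.28 for Gm13546, 0.14 for Tnfsf8 and -0.082 for Ifitm3. After thinning HC over NC of Ifitm3 was -0.25. No paired analysis was possible because each group has 1 library and the labels give no replicate numbers.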

Other observations

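Among the genes that differed less than those above, several of other roles leaned one way in the Gzma-positive cells of both libraries, here as values with no test. Dusp5, a nuclear phosphatase of ERK kinases, was at 39.9 against 23.3 CPM in NC and 41.0 against 29.6 CPM in HC, and Cdc25b, a phosphatase that lets cells enter mitosis, at 114 against 74.4 CPM and 164 against 118 CPM. Gata3, named after its values were seen, had log2 ratios of 0.52 (0.31 to 0.72) and 0.42 (0.28 to 0.57), and with depth weighting 0.54 and 0.44. On the low side were the CD30 ligand gene Tnfsf8 at -0.81 and -0.57, the calmodulin-binding gene Nrgn at -0.74 and -0.56, the cytokine receptor gene Il27ra at -0.65 and -0.52, the histone demethylase gene Kdm5b at -0.59 and -0.50 and Hivep3 at -0.73 and -0.45. With depth weighting Nrgn was at -0.95 and -0.63, past 1.5-fold in both libraries. Ltb, the lymphotoxin beta gene, was at 697 against 836 CPM in NC and 599 against 692 CPM in HC.

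Metabolic genes lay close to level between Gzma-positive and Gzma-0 cells, and ribosome assembly genes did so before depth was weighted. For 6 hypoxia genes the median log2 ratio of Gzma-positive over Gzma-0 cells was -0.01 in NC and 0.03 in HC, for 14 glycolysis genes 0.13 and 0.07, for 18 oxidative phosphorylation genes 0.05 and 0.06, and for 14 ribosome assembly genes -0.03 and -0.03. With Gzma-0 cells weighted for depth the ribosome assembly medians were -0.23 and -0.19. None of these genes was 1.5-fold apart in both libraries. Of 3 inhibitory receptor genes past the floor, Pdcd1 (PD-1) had -0.02 and 0.09, Lag3 -0.13 and -0.12 and Ctla4 0.07 and 0.12.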
